A study of Mus musculus with 5 samples.

Results

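Cycling neutrophil precursors are here bone marrow (BM) cells that carry mRNAs of neutrophil specific granules together with mRNAs of dividing cells. Division itself was not measured. They were chosen from measured values. A cell was a member when Ngp, Camp, Chil3 and Fcnb together made up at least 1% of its unique molecular identifiers (UMIs, each standing for 1 captured mRNA molecule), when Mki67 and Top2a together had at least 2 UMIs, and when Mpo, Elane, Prtn3 and Ctsg together made up less than 1%. Of 21520 cells with at least 200 genes and under 20% mitochondrial UMIs, 2428 (11.3%) were members. The cells came from 3 libraries of whole BM made with the 10x Genomics 3′ assay. The naive library was from untreated BALB/c mice, and the D2 CTX and D7 CTX libraries were from BALB/c mice taken 2 and 7 days after 150 mg/kg of cyclophosphamide (CTX), an alkylating drug that crosslinks DNA, given into the peritoneum. Per the study's methods the mice were 4 to 8 weeks old, red cells were lysed and dead cells were removed. Cells of 3 mice were pooled in equal numbers before capture, so each condition is 1 library, the spread between mice cannot be seen, no test between conditions was possible, and every interval below is a 95% interval that covers counting error only.

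Neutrophils arise in the marrow from granulocyte-monocyte progenitors. Progenitors first make azurophil granules, which hold myeloperoxidase and the serine proteases elastase, proteinase 3 and cathepsin G. Pre-neutrophils, the last dividing stage, then fill specific granules with proteins such as lactoferrin, lipocalin-2 and cathelicidin under the transcription factor C/EBP-epsilon. Once division ends, the cells make gelatinase granules and receptors for chemoattractants. The rule therefore asks for specific granule mRNAs and for mRNAs of dividing cells, and it leaves out cells rich in azurophil mRNAs.

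Sequences before the starts of 4 genes are shown because they stand for the programs the results turn on. They are Mki67 and Ube2c for division, Ccng1 for targets of p53 and Ngp for specific granules. Each sequence is the 250 bases before the RefSeq start on the gene's own strand, from RefSeq on GRCm38.p6. These starts lie 18 (Mki67), 26 (Ube2c), 25 (Ccng1) and 61 bases (Ngp) from the nearest start in GENCODE, whose gene coordinates are used elsewhere. By GENCODE the ends of the Ccng1 and Ngp windows lie inside the gene, as does the second motif marked in Ngp. Capitals mark a CCAAT box (CCAAT) or a cell cycle homology region (TTTGAA) in Mki67 and Ube2c, a p53 decamer motif in Ccng1 and a C/EBP motif (TTGCNNAA) in Ngp, on either strand. The windows are chr7:135716380-135716629 (minus strand) for Mki67, chr2:164769679-164769928 (plus strand) for Ube2c, chr11:40755287-40755536 (minus strand) for Ccng1 and chr9:110419558-110419807 (plus strand) for Ngp.
Mki67: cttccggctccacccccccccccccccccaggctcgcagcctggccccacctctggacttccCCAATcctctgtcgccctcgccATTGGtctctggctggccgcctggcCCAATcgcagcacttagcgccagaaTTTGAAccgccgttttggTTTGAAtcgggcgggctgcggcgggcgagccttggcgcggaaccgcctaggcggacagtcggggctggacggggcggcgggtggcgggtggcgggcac
Ube2c: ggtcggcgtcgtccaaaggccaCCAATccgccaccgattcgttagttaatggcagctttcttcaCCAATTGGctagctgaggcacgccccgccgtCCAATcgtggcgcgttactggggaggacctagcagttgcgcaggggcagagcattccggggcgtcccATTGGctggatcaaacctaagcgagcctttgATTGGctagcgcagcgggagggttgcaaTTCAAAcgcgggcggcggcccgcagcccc
Ccng1: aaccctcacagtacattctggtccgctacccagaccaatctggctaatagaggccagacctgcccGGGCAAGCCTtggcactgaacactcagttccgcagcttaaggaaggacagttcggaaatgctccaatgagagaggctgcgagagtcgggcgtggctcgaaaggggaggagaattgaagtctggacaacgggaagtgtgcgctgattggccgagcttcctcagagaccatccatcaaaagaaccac
Ngp: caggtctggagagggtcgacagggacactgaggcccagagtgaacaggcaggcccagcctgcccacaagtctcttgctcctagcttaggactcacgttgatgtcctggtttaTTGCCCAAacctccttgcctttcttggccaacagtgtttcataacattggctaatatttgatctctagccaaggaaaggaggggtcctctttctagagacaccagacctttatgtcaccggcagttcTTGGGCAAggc

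Among 32851 promoters of this length in the RefSeq table, 33.8% held a CCAAT box, 16.0% a cell cycle homology region, 5.55% both, 7.13% a p53 decamer motif and 9.56% a C/EBP motif. Motifs were counted wherever they occurred and could overlap each other. Of 40 mitosis genes listed for this work, 34 were in the table with 36 promoters, of which 28 (77.8%) held a CCAAT box and 12 (33.3%) held both elements. Of 36 DNA replication genes, 29 were in the table with 36 promoters, of which 20 (55.6%) held a CCAAT box and 4 (11.1%) held the E2F motif TTTGGCG, found in 1.26% of all promoters. Of 17 listed p53 targets, 12 were in the table, and 6 of their 16 promoters (37.5%) held the p53 motif. The C/EBP motif was in 2 of 4 promoters of the rule's granule genes (50%) and in 2 of 10 of the other specific granule genes (20%). The rule's granule genes also held a CCAAT box in 3 of 4 promoters and a cell cycle homology region in 2 of 4, and 3 of 4 promoters of stefin genes held the p53 motif. A match describes letters in the window and is not a measured binding site.

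Sequencing gave 47086837 UMIs over 7649 barcodes for naive BM, 34764874 over 6608 for D2 and 68459527 over 8605 for D7. The filter left 7104, 6126 and 8290 cells. The labels call the cells BM mononuclear cells and CD45+, although hemoglobin-rich cells and neutrophil stages are among them. The pairs of libraries shared 6 (naive and D2 CTX), 16 (naive and D7 CTX) and 13 (D2 CTX and D7 CTX) barcodes, and none of the shared barcodes was a member in both. Members were deep cells. Their median was 11835 UMIs and 2247.5 genes in naive BM, 16181 UMIs and 2993.5 genes at D2 and 11847 UMIs and 2165 genes at D7. Mitochondrial UMIs were low, with medians of 1.41%, 1.70% and 1.26%.

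All 4 genes that were proposed as markers of these cells, Chil3, Fcnb, Mki67 and Camp, are part of the rule, so their presence in members is no check of the name. Genes that the rule did not use gave that check. Levels below are UMIs per 1000000 (CPM) after summing the members of a library. Cebpe, the transcription factor of specific granule formation, stood at 554 CPM in naive members, 576 at D2 and 625 at D7. Non-cycling cells of the same granule gate, which met both granule thresholds but had at most 1 UMI of Mki67 and Top2a, had 337, 220 and 352 CPM. The 10 listed markers of early progenitors, such as Kit, Cd34 and Flt3, summed to 36.9, 62.9 and 14.8 CPM in members, with Sox4 the most abundant of them. The name held less well for members with little granule mRNA. The 37, 21 and 35 members in which the 4 granule genes made up less than 5% of UMIs had 133, 150 and 205 CPM of Cebpe, against 606, 612 and 639 CPM in the other members.

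RNA of other lineages was present in some members and differed between libraries. At least 3 UMIs of the B lineage genes Cd79a, Cd79b, Vpreb1 and Igll1 were found in 41 naive members (7.68%), 19 D2 members (7.66%) and 13 D7 members (0.790%). Hemoglobin made up at least 1% of UMIs in 19, 1 and 3 members. Together these were 56 naive members (10.5%, interval 8.02 to 13.4), 20 D2 members (8.06%, 5.0 to 12.2) and 16 D7 members (0.972%, 0.557 to 1.57). Scrublet, which scores barcodes by their likeness to simulated doublets, placed 79 (14.8%), 17 (6.85%) and 194 (11.8%) members among the highest-scored barcodes. Resting B lineage cells made up 18.8%, 26.5% and 1.19% of kept cells in the same order. Of the T cell genes, Cd3d was present at 97.9, 141 and 131 CPM in members, while Cd3e had 1.66 CPM in naive members and 0 UMIs at D2 and D7. At least 3 UMIs of the 3 Cd3 genes together were seen in 91, 97 and 391 members, but of Cd3e and Cd3g alone in 4, 0 and 0 members. Sums of the erythroid and B lineage lists and counts of genes past the threshold are therefore given with and without the members that carried this RNA. Single genes are given with all members unless stated otherwise.

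Members were 534 of 7104 naive cells (7.52%, exact Clopper-Pearson interval 6.91 to 8.15), 248 of 6126 D2 cells (4.05%, 3.57 to 4.57) and 1646 of 8290 D7 cells (19.9%, 19.0 to 20.7). The share was lowest 2 days after CTX and highest at 7 days. On the log2 scale the share relative to naive was -0.89 (-1.12 to -0.67) at D2 and 1.40 (1.26 to 1.54) at D7. Shares of a library move with every other cell type in it, and fewer members cannot be told apart from more cells of other kinds. Leaving lymphoid and hemoglobin-rich cells out of members and denominator alike gave -1.44 at D2 and 1.06 at D7, a setting that also drops the members with Cd3d. With cells under 2000 UMIs left out of members and denominator (5951, 4582 and 8045 cells remaining) the values were -0.71 and 1.21, and with those cells thinned to 2000 UMIs they were -0.66 and 0.98.

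**Figure D1:**
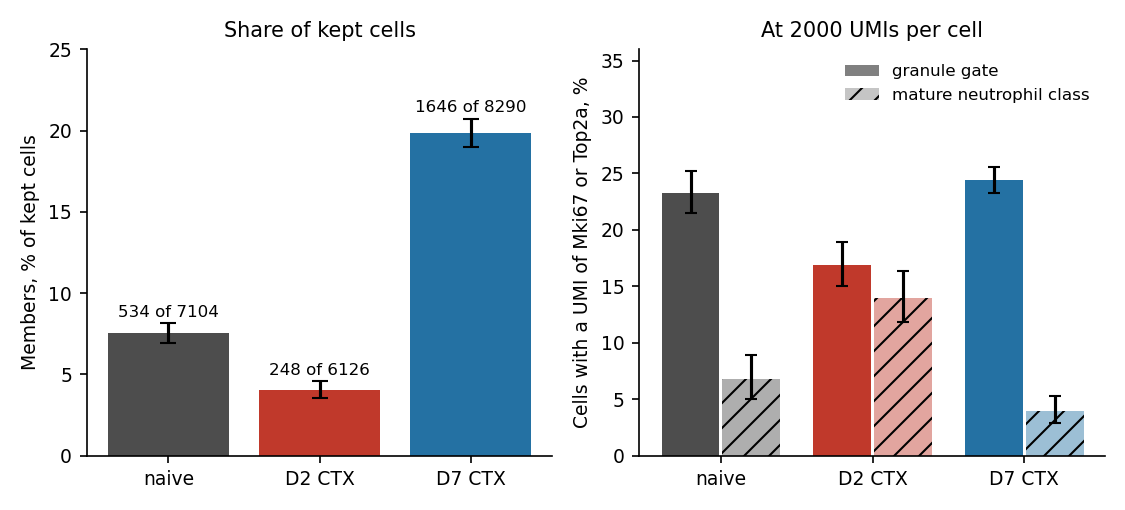
Left, members as a percent of kept cells in each whole BM library. Right, percent of cells with at least 1 UMI of Mki67 or Top2a after thinning to 2000 UMIs, in granule-gate cells (solid) and in the mature neutrophil class (hatched); bars are 1 library each with 95% exact binomial intervals. Members rise from 7.52% in naive BM to 19.9% at D7, whereas the cycling fraction of the gate is 23.3% and 24.4%.

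The share of members depends on how many cells are in the granule gate and on how many of those carry Mki67 and Top2a mRNAs. The gate, members included, held 30.1% of kept cells in naive BM, 24.0% at D2 and 63.4% at D7. Because deeper cells pass a UMI threshold more easily, each gate cell with 2000 UMIs or more was thinned to 2000 UMIs and counted as cycling with at least 1 UMI of Mki67 or Top2a. By this measure 477 of 2049 naive gate cells were cycling (23.3%, 21.5 to 25.2), 241 of 1426 D2 cells (16.9%, 15.0 to 18.9) and 1273 of 5218 D7 cells (24.4%, 23.2 to 25.6), after 89, 44 and 39 shallower cells were left out. The unthinned fractions were 25%, 16.9% and 31.3%. Relative to naive the thinned fraction was -0.46 on the log2 scale at D2 (-0.69 to -0.24) and 0.07 at D7 (-0.09 to 0.22). The D2 value kept its sign under all 7 other settings tried. At D7 it ranged from 0.08 to 0.33 under 6 of them and was -0.26 with at least 2 UMIs of the pair at 4000 UMIs, where 621 naive, 496 D2 and 181 D7 cells were left out. The gate at D7 was thus a larger share of kept cells than in naive BM, while resting B lineage cells were 1.19% against 18.8%. The gate's share with another denominator was not computed, and its number of cells in the marrow was not measured. A difference in the gate's cycling fraction could not be given a direction.

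A class named mature neutrophil was measured in the same way. Its cells needed at least 3 UMIs of Retnlg and Il1b together and under 3 UMIs of Cd79a and Cd79b together. Their granule and azurophil genes were each under 1% of UMIs. Retnlg was also found in D2 resting B lineage cells, as given below, so cells other than mature neutrophils could meet this definition. The class is thus no clean background. In it 6.76%, 14.0% and 3.96% of cells had a UMI of Mki67 or Top2a at 2000 UMIs, with median depths of 2307, 2114 and 3985 UMIs before thinning against 5291, 4542.5 and 7782 in the gate. That class held barcodes with mRNAs of dividing cells in every library. Scrublet placed 49, 94 and 38 cells of the whole class among the highest-scored barcodes, and its calls for the barcodes with such mRNAs were not counted apart. Its 35, 143 and 26 cells with at least 2 UMIs of Mki67 and Top2a had medians of 14866, 23448 and 12667 UMIs, and the mitosis genes summed to 9331, 8005 and 8910 CPM in them, against 1817, 1865 and 1634 CPM in its cells with no such UMI. In B lineage cells the cycling fraction was 35.7% in naive BM, 6.13% at D2 and 53.1% at D7, and in azurophil-rich cells it was 43.8%, 55.4% and 35.5%.

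Inside the gate the cycle threshold separated cells by other division genes as well. The listed mitosis genes other than Mki67 and Top2a summed to 1680, 2045 and 1687 CPM in gate cells with no UMI of that pair, to 2700, 2585 and 2952 CPM with 1 UMI, and to 4707, 5138 and 5686 CPM with 2 UMIs. Cells with 10 or more UMIs reached 12037, 10253 and 11848 CPM. Just outside the threshold were 159, 63 and 312 cells with 1 UMI, and just inside were 45, 7 and 158 cells with 2 UMIs. At the granule threshold 3, 3 and 2 cycling cells had 0.8 to 1% of granule UMIs and 4, 7 and 4 had 1 to 1.2%. At the azurophil threshold 2, 2 and 15 cycling cells lay between 0.8 and 1% and 4, 2 and 9 between 1 and 1.2%. Few members thus sat at the granule and azurophil limits, and more at the cycle limit.

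The granule genes of the rule made up a median of 12% of a naive member's UMIs, 9.72% at D2 and 11.2% at D7. S100a8 and S100a9, which encode the calprotectin subunits and were not used by the rule, made up 34.4%, 27.8% and 35.5%. Ltf encodes lactoferrin, a protein of specific granules that accumulates late in the dividing stage. Its median share of a member's UMIs was 0.733% in naive BM, 1.12% at D2 and 0.782% at D7. The summed level of Ltf in members was 6813, 10590 and 7330 CPM.

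Members at D2 held more Ltf than naive members. Of the D2 members, 94 (37.9%) had Ltf at 1.25% or more of UMIs, against 29 naive members (5.43%) and 87 D7 members (5.29%). Conversely 44.2% of naive members and 35.9% of D7 members, but 12.9% of D2 members, had between 0.25% and 0.75%. The cycling fraction of gate cells at 2000 UMIs also differed by class. Between 0.25% and 0.75% of Ltf it was 39.5% in naive BM (35.2 to 43.9), 9.89% at D2 (7.02 to 13.4) and 35.1% at D7 (32.4 to 37.8). At 1.25% or more it was 7.47% (5.23 to 10.3), 22.3% (18.2 to 26.8) and 7.11% (5.58 to 8.92). Between 0.75% and 1.25% the libraries were close, with 24.3%, 26.5% and 25.9%. Below 0.25% the fraction was 15.7% in naive BM (11.5 to 20.8), 5.54% at D2 (3.20 to 8.84) and 23.9% at D7 (20.1 to 28.2), the D7 value standing above naive there.

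**Figure D2:**
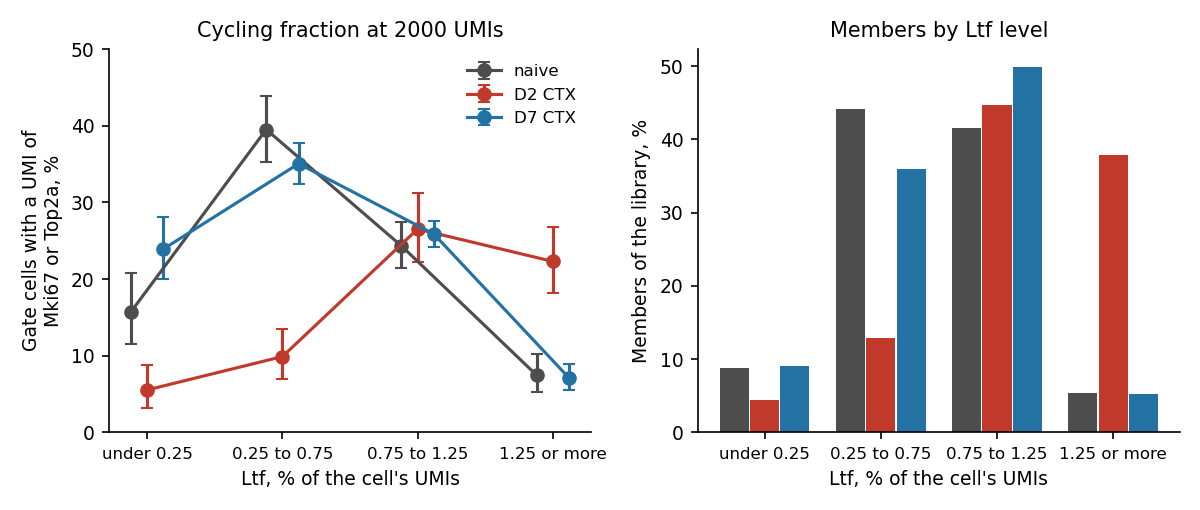
Left, percent of granule-gate cells with a UMI of Mki67 or Top2a at 2000 UMIs, by the share of Ltf in the cell's UMIs, with 95% exact binomial intervals. Right, percent of each library's members in the same classes of Ltf; naive and D7 peak at 0.25 to 1.25%, and the D2 members extend to 1.25% and above (37.9%).

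Members differed from non-cycling gate cells in ways that were shared by all 3 libraries. Among 3776 genes measured in all of them, 584 were at least 1 log2 unit higher and 249 at least 1 log2 unit lower in members in every library, which describes the rule's split and is no test. The 10 highest outside the rule were Nusap1, Spc25, Ube2c, Fbxo5, Esco2, Ccna2, Prc1, Cdca2, Kif11 and Hist1h1b, which serve the spindle, chromosome cohesion, mitotic proteolysis and chromatin. Ube2c, the ubiquitin-conjugating enzyme of the anaphase-promoting complex, stood at 687, 974 and 655 CPM in members and at 16.9, 12.6 and 14.4 CPM in non-cycling gate cells. Mmp8 and Retnlg were among the 10 lowest. Mmp8, neutrophil collagenase, stood at 77.5, 295 and 104 CPM in members and at 1881, 3634 and 1345 CPM in non-cycling gate cells, and Retnlg at 428, 1197 and 1024 CPM against 9889, 18231 and 11013 CPM.

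Each treated library was compared with naive gene by gene in members, with 1 CPM added before the log2 ratio, for genes with at least 100 UMIs over the pair and at least 20 CPM in at least 1 library. Genes past 1 log2 unit are counted as higher or lower. At D2, 322 of 4579 genes (7.03%) were higher and 111 (2.42%) were lower. At D7, 13 of 4038 genes (0.322%) were higher and 75 (1.86%) were lower. The median ratio of all tested genes was 0.18 at D2 and -0.15 at D7, and list medians below are to be read beside these values. With the median of all genes set to 0 the D2 counts became 187 higher and 172 lower (52.1% higher in place of 74.4%), and the D7 counts 15 and 61 (19.7% in place of 14.8%). Both comparisons share the naive library.

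**Figure D3:**
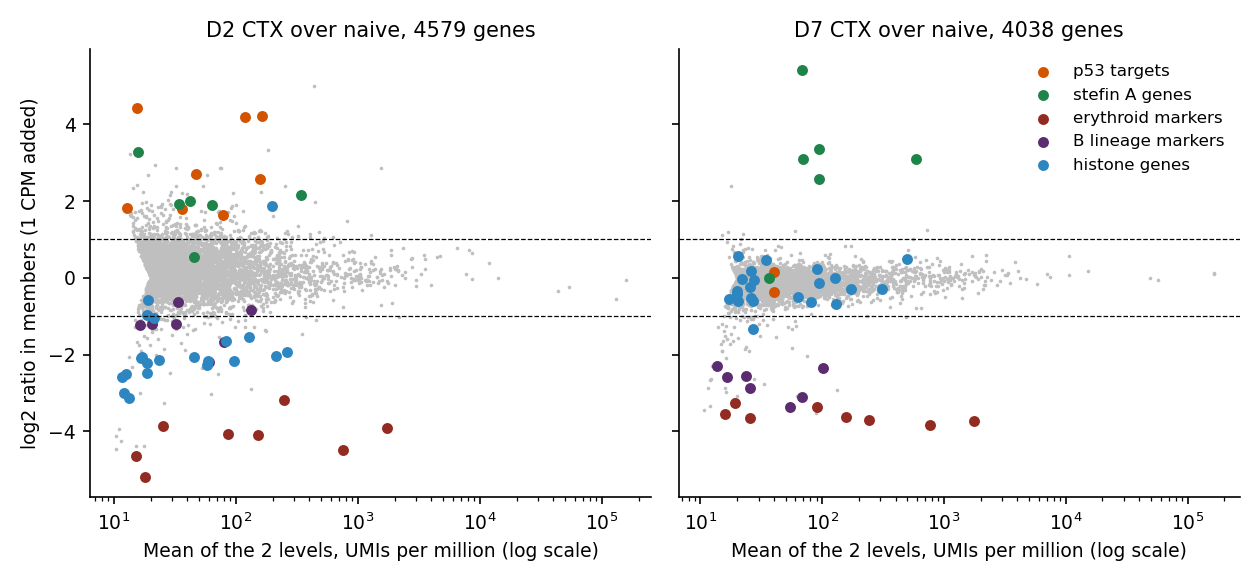
Log2 ratio of each tested gene in members against its mean level, for D2 CTX over naive (4579 genes) and D7 CTX over naive (4038 genes), each point a gene summed over the members of 1 library per condition. At D2 the p53 targets lie above 1 and most histone genes below -1. At D7 the stefin genes other than Cstb stand above the rest and the erythroid genes below.

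At D2 the members carried mRNAs of p53 targets at levels far above those of naive and D7 members. p53 is a transcription factor that DNA damage stabilizes, and its targets arrest the cycle, promote cell death or limit p53 itself. A gene that passed the filter on low values only through the library where it is high had to differ, so lists are also counted without the filter, over every listed gene with a UMI. Of all 14598 genes with a UMI, 6.78% were higher and 3.17% lower at D2 by that count. Of 17 p53 targets 16 were higher at D2 by that count, with a median of 2.21. The filter left 8 targets, 6 of them through D2 alone, and those 8 were all higher, with a median of 2.64. Their sum over the list was 154 CPM in naive members, 1188 at D2 and 154 at D7.

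Cdkn1a, the cyclin-dependent kinase inhibitor p21 (ENSMUSG00000023067, chromosome 17, 29090976 to 29100727), had 76 UMIs (11.5 CPM) in naive members, 954 (227 CPM) at D2 and 315 (15.4 CPM) at D7, a D2 log2 ratio of 4.19 (3.97 to 4.66). Ccng1, cyclin G1, whose promoter is printed above (ENSMUSG00000020326, chromosome 11, 40748552 to 40755311), stood at 15.6, 309 and 16.9 CPM, a ratio of 4.23 (4.02 to 4.62). Phlda3, a repressor of Akt signalling, had 3 UMIs in naive members, 128 at D2 and 1 at D7, a raw ratio of 67.1 at D2 with a log2 interval of 4.49 to 8.36. The D2 library was thus high for all 3 of these genes, and the naive and D7 libraries were low. Bax, which opens the outer mitochondrial membrane in cell death, stood at 45.0, 273 and 34.8 CPM and Mdm2, the ubiquitin ligase of p53, at 37.9, 120 and 42.5 CPM. The remaining tested targets were Trp53inp1 (2.71), Aen (1.82) and Ei24 (1.80), given as D2 log2 ratios.

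The p53 mRNAs were spread over nearly all D2 members. With each member thinned to 4000 UMIs, 97.9% of 241 D2 members (95.2 to 99.3) had at least 1 UMI of the list, against 42.0% of 512 naive members (37.7 to 46.4) and 44.6% of 1630 D7 members (42.2 to 47.1). The mean was 0.605 UMIs per naive member, 4.63 at D2 and 0.614 at D7. Non-cycling gate cells had 232, 504 and 201 CPM of the list, and cycling azurophil-rich cells had 219, 1387 and 201 CPM. Resting B lineage cells had 613, 952 and 514 CPM. Within members the D2 level was high in each class of Ltf, from 1106 CPM at 1.25% or more to 1864 CPM below 0.25%, against 137 to 184 CPM in naive members.

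**Figure D4:**
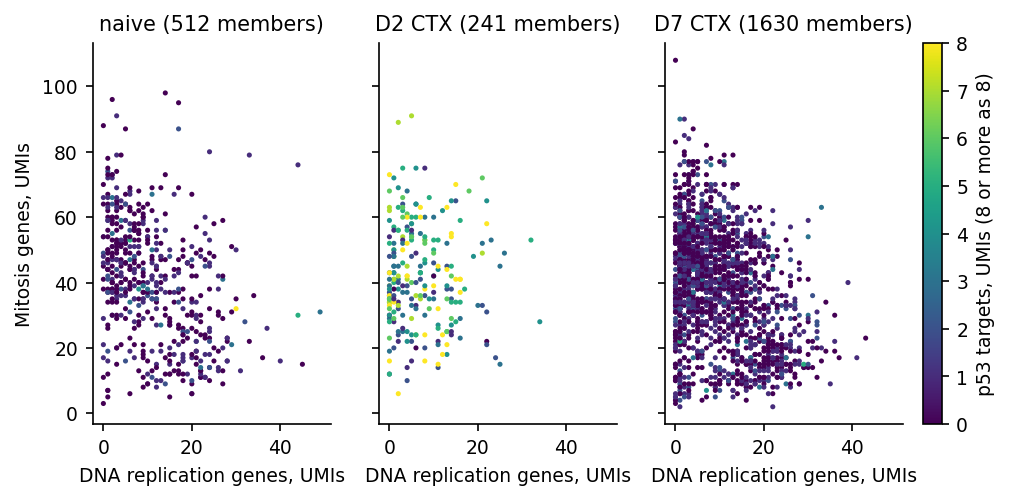
Members thinned to 4000 UMIs, by UMIs of the DNA replication list (horizontal) and the mitosis list (vertical), coloured by UMIs of the p53 target list, in 1 panel for each library. D2 members are coloured for more p53 UMIs (mean 4.63 against 0.605 and 0.614), and their replication UMIs are lower (median 5 against 9 and 9) while mitosis UMIs are similar (medians 40, 41 and 40).

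Histone genes and a few DNA replication genes were lower at D2, and no gene of the mitosis list was past the threshold in these cells, which were chosen by Mki67 and Top2a. Replication-dependent histones are made when DNA is copied, and most of their mRNAs lack the poly(A) tail by which this assay captures RNA, so only a part of them is measured. Of 61 histone genes with a UMI 45 were lower and 1 was higher at D2, with a median of -1.70. The filter left 21, 14 of them through naive alone, of which 18 were lower, with a median of -2.09. Their sum was 2185 CPM in naive members, 838 at D2 and 2070 at D7. Hist1h1b, a linker histone, stood at 418, 109 and 584 CPM, and Hist1h3d at 24.5, 1.90 and 28.0 CPM. The exception was Hist1h2ap, at 83.8, 310 and 98.1 CPM, and in resting B lineage cells at 4.97, 25.4 and 2.24 CPM. Histone genes of a class share nearly the same sequence, so the split of reads between copies is uncertain.

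Of 36 DNA replication genes 4 were lower and none was higher at D2 without the filter, with a median of -0.54 beside 0.10 for all genes with a UMI. Of the 33 that passed the filter, 4 did so through naive alone, and 2 of the other 29 were lower. The 4 lower genes were Rrm2, the small subunit of ribonucleotide reductase (257, 98.6 and 258 CPM, ratio -1.38), Lig1, the ligase of lagging-strand fragments (141, 57.0 and 110 CPM), and the cyclins Ccne1 and Ccne2, which start S phase and passed the filter through naive alone. The summed level of the list was 2956 CPM in naive members, 1972 at D2 and 2484 at D7. Per cell at 4000 UMIs the median was 9, 5 and 9 UMIs for replication genes and 7.5, 1 and 8 UMIs for histones. In cycling azurophil-rich cells the replication list gave 3362, 3721 and 3145 CPM. Without the members that carried B lineage or hemoglobin RNA the replication sums in members were 2547, 1974 and 2443 CPM, and the histone sums were 2064, 842 and 2068 CPM.

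None of 39 tested mitosis genes was past 1 log2 unit at D2, with a median of 0.04 that ranged from -0.14 to 0.12 over the settings tried. The sum was 10283, 10016 and 9867 CPM, and the median per cell at 4000 UMIs was 40, 41 and 40 UMIs. Hmgb2 alone held 40.9%, 37.1% and 42.4% of that sum, so the sum and the per-cell counts weigh this gene heavily. Cyclin B1 (Ccnb1) stood at 78.1, 108 and 73.1 CPM and Plk1, a kinase of mitotic entry, at 71.9, 73.9 and 71.1 CPM. Members at D2 also differed by depth, as their median of 16181 UMIs shows. Within each class of Ltf the histone level at D2 remained below naive, for example 790 against 2110 CPM between 0.75% and 1.25%. The replication level was 3087 at D2 against 4080 CPM in naive members below 0.25%, 2856 against 2998 between 0.25% and 0.75%, 1987 against 2592 between 0.75% and 1.25%, and 1387 against 2912 at 1.25% or more, so the libraries were close in the second of these classes. Of 19 E2F family and cyclin genes 2 were higher without the filter. Rbl2, a pocket protein of resting cells, was among them and passed the filter through D2 alone (13.9, 43.0 and 10.5 CPM), and none of 11 tested crosslink repair and checkpoint genes was past 1 log2 unit, with a median of -0.27.

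Genes of later neutrophil stages were higher in D2 members. Without the filter 6 of 8 gelatinase granule genes were higher, with a median of 1.67, and 11 of 14 genes of mature neutrophils, with a median of 1.47. The filter left 6 and 10 of them, 1 and 4 through D2 alone, of which 4 and 7 were higher. Mmp9, the gelatinase itself, stood at 80.7 CPM in naive members, 427 at D2 and 105 at D7 (D2 ratio 2.39, 2.26 to 2.55). Adam8, a membrane metalloproteinase, stood at 11, 75.8 and 14.9 CPM. Among 20 receptors, 9 were higher without the filter. Of the 12 that passed it 4 were higher, namely Csf3r, the receptor of granulocyte colony-stimulating factor (48.6, 138 and 45.2 CPM), Cxcr2 (23.3, 80.0 and 28.1 CPM), Ccr1 (32.9, 112 and 25.9 CPM) and the decoy receptor Il1r2, which passed through D2 alone (9.67, 54.9 and 10.2 CPM). S100a6, a calcium-binding protein, stood at 368, 2698 and 749 CPM.

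These mRNAs are abundant in mature neutrophils, and some were also seen in B cells, which are not known to make them. Gelatinase genes summed to 844, 2322 and 1476 CPM in members and to 1009, 2716 and 675 CPM in resting B lineage cells, whose median depth was 2433, 2536 and 2483 UMIs. As UMIs per cell, the sums were 10.5, 39.4 and 18.3 in members and 2.88, 8.42 and 3.05 in resting B lineage cells. Retnlg, the most abundant gene of the list, had 20.3 UMIs per D2 member and 6.01 per D2 resting B cell. For S100a6 the D2 values were 45.8 and 2.70 UMIs per cell, for Mmp9 7.25 and 0.445, for Csf3r 2.35 and 0.208 and for Cxcr2 1.36 and 0.255. The part of RNA from outside the cells in the D2 values was not tested.

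Of 12 tested genes of the specific granules 2 were higher at D2 and none was lower. Of all tested genes 7.03% were higher and 2.42% lower. The list's median was 0.50 beside 0.18 for all tested genes. The 2 higher genes were Itgam, the integrin CD11b (261, 552 and 244 CPM), and Ceacam10 (13.6, 65.6 and 31.0 CPM). Ceacam10 passed the filter through D2 alone. Lcn2 stood at 10328, 13407 and 10958 CPM. Of the rule's own genes, Chil3 stood at 2753, 4164 and 3198 CPM, Fcnb at 619, 589 and 615 CPM, Ngp at 48844, 38717 and 48873 CPM and Camp at 58229, 49495 and 55731 CPM. Of the azurophil genes, which the rule limits, Mpo stood at 39.0, 146 and 51.5 CPM and Elane at 252, 97.6 and 182 CPM. Of 9 other azurophil stage genes Plac8 was higher (255, 560 and 268 CPM, ratio 1.13). Itgam, Plac8 and Ifitm3 lay within 0.18 of the threshold, so their calls depend on the scaling.

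With 1 CPM added, the largest D2 ratio of all tested genes was that of Ifi27l2a, an interferon-inducible gene (ENSMUSG00000079017, chromosome 12, 103442167 to 103443680). It stood at 25.4, 848 and 24.5 CPM, a log2 ratio of 5.01 (4.84 to 5.29). The raw ratio of Phlda3, given above, was larger than that of Ifi27l2a. Resting B lineage cells had 353, 626 and 110 CPM of Ifi27l2a. Of 17 interferon-stimulated genes on a list that did not include Ifi27l2a, 10 were higher without the filter, with a median of 1.08. The 7 that passed it held Ifitm1, Isg15 and Bst2, which passed through D2 alone, and Ifitm3, and these 4 were higher. Isg15 stood at 8.16, 26.8 and 7.28 CPM. Others among the 10 largest ratios were Mgmt, which removes alkyl groups from guanine (1.81, 25.2 and 1.51 CPM), Dcxr, a sugar and carbonyl reductase (4.23, 39.2 and 3.67 CPM), Acot1, an acyl-CoA thioesterase (6.95, 57.2 and 6.45 CPM), and the predicted genes Gm10076 (32.0, 334 and 37.2 CPM) and Gm42047 (16.9, 130 and 14.0 CPM). Resting B lineage cells also held more of both predicted genes at D2, with 53.1, 524 and 55.9 CPM of Gm10076 and 13.9, 82.5 and 20.1 CPM of Gm42047. Mgmt had 12 UMIs in naive members and 106 at D2, so its interval was wide (2.93 to 4.79).

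Counts of the remaining lists at D2 differed widely. None of 16 tested glycolysis and pentose phosphate genes and none of 9 ribosome biogenesis genes was past the threshold, with medians of 0.30 and -0.37. Of the ribosome biogenesis genes 2 passed the filter through naive alone, and the median over all 17 with a UMI was -0.22. Of 16 secretory and unfolded protein response genes Calr, a chaperone of the endoplasmic reticulum, was higher (47.0, 145 and 35.9 CPM). Of 18 transcription factors 2 were higher without the filter, among them Foxo3, which passed it through D2 alone (9.82, 27.1 and 5.91 CPM). Of 14 immediate early genes 5 were higher and 1 was lower without the filter. Those that passed it were Fos, Dusp1, Egr1 (through D2 alone) and, lower, Fosb (through naive alone), and Dusp1 and Egr1 also lay within 0.18 of the threshold. Of 77 cytosolic ribosomal protein genes 2 were higher, Rps27l (ratio 1.34) and Rps19 (1.11), of which Rps19 also lay within 0.18 of the threshold. Macrophage markers were higher for 5 of 8 without the filter, with a median of 1.56 and a sum of 44.3, 109 and 29.8 CPM, and monocyte markers for 3 of 11 with a median of 0.63, Ly6c2 being the most abundant (248, 223 and 159 CPM). Hmox1 (8.91, 32.3 and 7.58 CPM) and F13a1 (9.52, 29.2 and 16.9 CPM) passed the filter through D2 alone. The part of such cells in the D2 values was not tested, and Csf1r, F13a1 and Ccr2 together reached 3 UMIs in 8, 8 and 47 members.

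**Figure D5:**
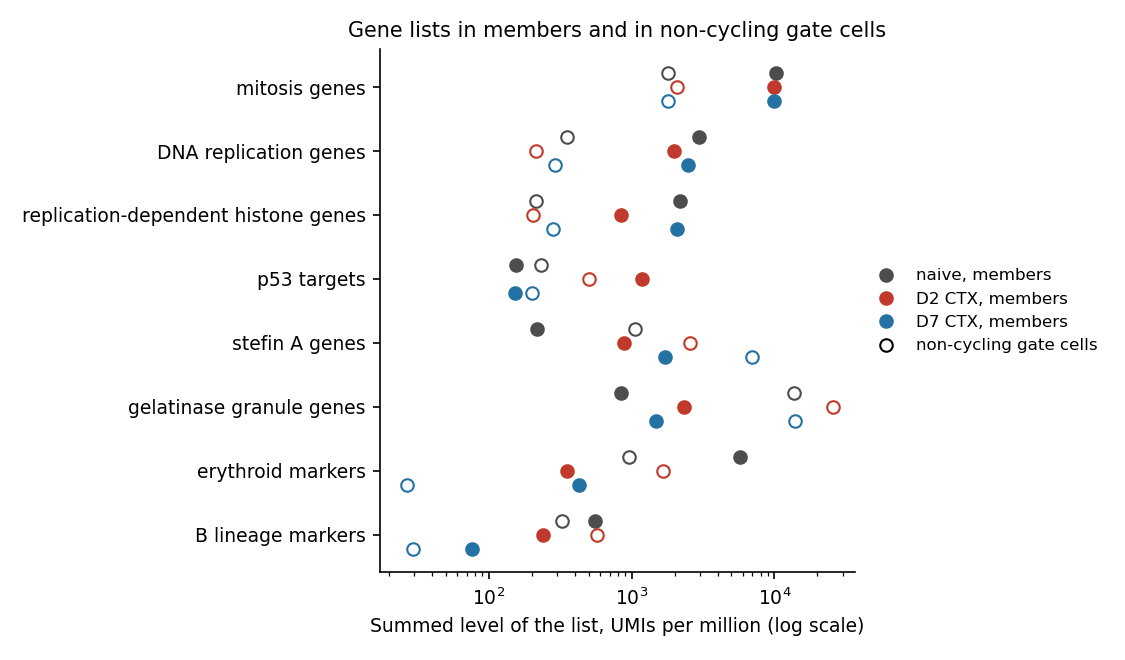
Summed level of each gene list in CPM on a log scale, filled circles for members and open circles for non-cycling gate cells, coloured by library. p53 targets stand at 1188 CPM in D2 members and at 154 in naive and D7 members, histones at 838 against 2185 and 2070, and stefin A genes at 218, 881 and 1704 in naive, D2 and D7 members.

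At D7 the members were close to naive for most of these programs, and stefin A genes stood apart. Stefins of this family are intracellular inhibitors of cysteine proteases, encoded in mouse by a cluster of similar genes on chromosome 16 and made by neutrophils. Of the 8 genes of the list, which also holds Cstb, 7 were higher at D7 without the filter, with a median of 2.83, where 0.341% of all genes with a UMI were higher, and 7 were higher at D2, with a median of 1.97. Of the 6 that passed the filter, 3 did so through the treated library alone, and 5 were higher at D7. The sum was 218 CPM in naive members, 881 at D2 and 1704 at D7. BC100530 held 56.1%, 63.0% and 62.6% of that sum. Because the genes resemble each other, the split between them is uncertain, and how far their sum is affected was not tested.

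Stfa2 (ENSMUSG00000022902, chromosome 16, 36403992 to 36408457) had 14 UMIs in naive members, 123 at D2 and 2726 at D7, or 2.11, 29.2 and 133 CPM, a D7 ratio of 5.43 (5.23 to 6.85) and a D2 ratio of 3.28 (2.99 to 4.70). BC100530 (ENSMUSG00000071561, chromosome 16, 36359382 to 36367748) stood at 122, 555 and 1066 CPM, a D7 ratio of 3.11 (3.02 to 3.22). Stfa2l1 stood at 16.0, 67.5 and 174 CPM, Stfa3 at 13.7, 54.9 and 124 CPM and Gm5483 at 26.4, 102 and 162 CPM. Each of these 5 was lowest in naive members and highest at D7. Cstb, the stefin B gene, stood at 36.9, 53.7 and 36.8 CPM.

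The stefin mRNAs were uneven between D7 members. At 4000 UMIs, 50.5% of D7 members (48.0 to 52.9) had at least 1 UMI of the list, 58.9% of D2 members (52.4 to 65.2) and 29.9% of naive members (25.9 to 34.1). The D7 mean was 6.30 UMIs with a median of 1 and a 95th percentile of 30. Non-cycling gate cells had higher levels in every library, with 1050, 2545 and 6928 CPM. Resting B lineage cells had 198, 499 and 91.7 CPM, which is 0.565, 1.55 and 0.414 UMIs per cell against 2.71, 14.9 and 21.2 per member.

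The other genes among the 10 largest D7 ratios were Asprv1, an aspartic protease (4.98, 12.6 and 30.5 CPM), Retnlg (D7 ratio 1.25), Mt1, a metallothionein (35.2, 32.3 and 83.4 CPM), Cystm1 (9.82, 32.5 and 23.7 CPM) and Ceacam10 (13.6, 65.6 and 31.0 CPM). S100a6 was also past the threshold, with a ratio of 1.02. Retnlg, S100a6 and Ceacam10 lay below 1 log2 unit under some other settings, at 0.66, 0.69 and 0.62 at the lowest. None of 2 tested p53 targets, 33 replication genes and 39 mitosis genes was past the threshold at D7, with medians of -0.10, -0.33 and -0.12. Without the filter 1 of 16 p53 targets was higher at D7 and none of 36 replication and 40 mitosis genes was. By the same count 2 of 64 histone genes, 2 of 17 ribosome biogenesis genes and 2 of 19 E2F family and cyclin genes were lower. Of all 15249 genes with a UMI, 0.341% were higher and 3.18% lower. The lower genes that also passed the filter, Hist1h1a, Ddx21 (a helicase of the nucleolus, 23.7, 13.5 and 11.1 CPM) and E2f4 (29.2, 15.0 and 13.1 CPM), did so through naive alone. None of them was among the 11 genes lower at D7 when members with B lineage or hemoglobin RNA were left out. Ddx21 (-1.03) and E2f4 (-1.10) also lay close to the threshold, so their calls depend on the scaling. The ribosome biogenesis list's median over 9 tested genes, 5 of which passed the filter through naive alone, was -0.71 beside -0.15 for all genes. It was -0.67 over the 4 genes that passed in both libraries and -0.69 over all 17 genes with a UMI. Without the members with B lineage or hemoglobin RNA the list's median was -0.34. Npm1, nucleophosmin, stood at 305, 307 and 196 CPM.

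Erythroid genes led the lower side of both comparisons, with B lineage genes beside them. All 12 listed erythroid markers were lower at D2 and at D7 without the filter (medians -3.90 and -3.47, where 3.18% of all genes with a UMI were lower at D7), as were the 8 that passed it. With Scrublet doublets removed the list's median turned to 0.54 at D2 and 1.02 at D7. Before that removal 19 naive, 1 D2 and 3 D7 members held hemoglobin at 1% or more of UMIs, so these medians can turn on few cells. Without the members that carried B lineage or hemoglobin RNA the list's sums stayed below naive at D2 and D7, as given below. Hbb-bs, a beta-globin, stood at 3248 CPM in naive members, 213 at D2 and 245 at D7. Among the 10 lowest at D2 were Slc4a1, Tspan33, Rhd, Myl4, Ermap, Aqp1, Car2, Cldn13 and Car1, most of them red cell membrane proteins or carbonic anhydrases. The 10 lowest at D7 also held Hemgn and the B lineage genes Vpreb3 (99.5, 21.1 and 8.70 CPM) and Ebf1 (123, 37.5 and 13.2 CPM). Of 10 B lineage markers 6 were lower at D2 and 10 at D7 without the filter, and the D2 median of the tested ones turned from -1.20 to 0.17 with Scrublet doublets removed. Igkc and Ighm had D7 ratios of -3.53 and -2.35, mt-Atp8 one of -1.01, and Gm47283 on chromosome Y a D2 ratio of -1.21.

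Most of the hemoglobin sum came from few members, while traces were more common. At 4000 UMIs the median member had 0 UMIs of the erythroid list in each library, and 39.8% of naive members, 17.4% at D2 and 6.01% at D7 had any. The 37 naive members with less than 5% of granule UMIs held 41680 CPM of hemoglobin, against 937 CPM in the other 497. When members with B lineage or hemoglobin RNA were left out, erythroid markers summed to 189, 64.0 and 15.5 CPM in place of 5741, 353 and 425 CPM, and B lineage markers to 52.1, 44.2 and 23.6 CPM in place of 557, 239 and 76.1 CPM. The lower counts went from 111 to 62 at D2 (57 shared) and from 75 to 11 at D7 (11 shared), whereas the higher counts became 379 (294 shared) and 18 (12 shared). Among the 11 lower genes at D7 were Hba-a1 (-3.33), Hbb-bs (-3.31) and Igkc (-3.29), whereas Ighm, Vpreb3, Ebf1 and Hemgn were not among them. The p53 list then stood at 139, 1174 and 152 CPM, the stefin list at 209, 811 and 1654 CPM and the gelatinase list at 697, 2232 and 1449 CPM.

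The other cells of the same libraries give the scale of these differences. In non-cycling gate cells 279 of 3995 genes were higher and 63 lower at D2, and 15 and 39 of 3605 at D7. In cycling azurophil-rich cells 302 and 50 of 3994 were past the threshold at D2, and 50 and 23 of 4456 at D7. The D2 library thus held more genes past the threshold than the D7 library in all 3 kinds of cell, although the number of cells behind each count differed, with 248 members and 54 azurophil-rich cells at D2 against 1646 and 284 at D7.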

How the data were processed

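Of 5 libraries of mouse BM made with the 10x Genomics 3′ assay, 3 of whole BM entered the comparisons. The other two hold sorted cells and were searched for members alone. The authors deposited counts, as UMIs per gene and barcode in unnormalized matrices. The submitters' processing notes name Cell Ranger 3.1, Seurat 5.0 and the genome mm10. The deposited whole BM matrices hold fewer barcodes than the cells the study counts in each of these libraries, and its own cell labels were not used here. Cells needed 200 genes and under 20% mitochondrial UMIs. Members and lists were chosen with earlier results of these data known. UMIs were summed over the members of a library and scaled to CPM by the total. With 1 pooled library a condition there was no test: genes past 1 log2 unit were counted. Shares have exact Clopper-Pearson intervals, sums exact Poisson intervals and ratios exact conditional intervals, all at 95% and for counting error only. Intervals of gene ratios are of the raw UMI ratio, without the 1 CPM that the ratio itself carries, so a ratio of few UMIs can lie outside its interval. A gene list is described by its counts and median.

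Named genes were the 10 highest and 10 lowest ratios of each comparison, with immunoglobulin, hemoglobin, mitochondrial and chromosome Y genes apart, the rule's genes, up to 4 genes of each list, and the 10 genes highest in members over non-cycling gate cells. Further genes, chosen after their values were seen, are the other called members of lists with few calls, the remaining p53 targets, Ccnb1, Plk1, the T cell genes and the genes lowest in members over non-cycling gate cells. Some genes that this rule names are not reported here. Doublets were not removed in the main values. As an alternative Scrublet (scanpy 1.11.5) removed the highest-scored 0.8% of barcodes per 1000 barcodes. Other alternatives were stricter cell filters, other thresholds, thinning, another denominator, another scaling, 0.1 CPM in place of 1, no filter on low genes, the mean over cells, and a total without the 20 most abundant genes. Leaving out members with B lineage or hemoglobin RNA, and leaving out cells under 2000 UMIs without thinning, were chosen after seeing the data. Of 31053 gene IDs, 30934 were in GENCODE M21, which gave coordinates on mm10. Promoters are from RefSeq. The scripts were tested on simulated data and used pandas 2.3.3, scipy 1.17.1, numpy 2.4.6 and matplotlib 3.10.9 under Python 3.11.15.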

Additional observations from a re-analysis of the deposited data

Results flagged for a closer look

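The sorted libraries were outside the comparisons, and granule-gate cells appeared in them above the limit that a count of 0 allows. Of 1891 kept cells of the sorted naive library, 21 (1.11%, 0.689 to 1.69) were in the granule gate, against a limit of 0.159%. Of 2564 kept cells of the sorted CTX library, 54 (2.11%, 1.59 to 2.74) were in the gate and 6 (0.234%, 0.0859 to 0.509) met the full rule, against a limit of 0.117%. In the sorted naive library 3 cells met the rule, which is at the limit. The labels do not give the day of the sorted CTX cells, although the study describes monocytes sorted 7 days after CTX. The 2 sorts were not compared.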

How the results depend on the processing

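No paired analysis was possible because each condition is 1 library and the libraries share only the replicate number 1. For the same reason no replicate could be left out. Depth limits rare genes: at D2 the 248 members hold 4210060 UMIs. All settings were planned other than 2 chosen after seeing the data, leaving out members with B lineage or hemoglobin RNA and leaving out cells under 2000 UMIs without thinning, and the cause of a change was not tested unless the setting's own construction gives it. The share kept its direction under every setting tried. For the share at D2, the log2 ratio of -0.89 became -0.66 after thinning, -1.44 with the other denominator and -1.29 without members with B, Cd3 or hemoglobin UMIs. At D7, 1.40 became 0.98 after thinning, 1.06 with the other denominator, 1.21 without cells under 2000 UMIs and 1.55 without members with B or hemoglobin UMIs. The cycling fraction at D7 was 0.07, but -0.26 at 4000 UMIs, 0.33 without thinning and 0.23 with Cdk1, Birc5, Ccna2, Ube2c and Tpx2 in place of Mki67 and Top2a. The D2 counts of 322 higher and 111 lower became 187 and 172 with the median of gene ratios as scale and 990 and 463 without the filter on low genes. The lower count became 168 without the 20 most abundant genes in the total, 64 with Scrublet doublets removed and 62 without members with B or hemoglobin UMIs. The D7 counts of 13 higher and 75 lower became 52 and 485 without the filter, and the lower count became 9 with Scrublet doublets removed and 11 without members with B or hemoglobin UMIs. With Scrublet doublets removed the median of the B lineage list turned to 0.17 at D2 and that of the erythroid list to 0.54 at D2 and 1.02 at D7. Bst2, the tested gene behind the plasmacytoid dendritic cell list (1.46 at D2), gave way to a list median of -0.18 without the filter. Over the 8 settings the D2 medians ranged from 2.21 to 3.36 for p53 targets, from -2.31 to -1.70 for histones and from -0.71 to -0.20 for replication genes, and the D7 median of stefin A genes from 2.81 to 3.41. Of 28 list medians at D2, 8 changed sign under at least 1 setting, 5 of them under 1 in size, and of 27 at D7, 17 did, 16 of them under 1 in size. Among these, without the filter, T and NK cell markers went from 0.52 to -1.23 at D2 and from 0.41 to -0.75 at D7. Monocyte markers at D7 ranged from -0.83 to 0.56, gelatinase genes at D7 from -0.10 to 0.73 and S100 genes at D2 from -0.03 to 0.43.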
